A study of Mus musculus with 4 samples.

Results

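The MYC, MAX and MXD network is a family of transcription factors that compete for one DNA word, and it was examined here in mouse hematopoietic stem cells (HSC) and in the multipotent progenitors (MPP) they give rise to. Its 10 members were Myc, Mycn, Mycl, Max, Mxd1, Mxd3, Mxd4, Mxi1, Mnt and Mlx. They are 10 of the 18193 genes named on the array. Every probe set whose array annotation named 1 gene, that gene being a member, was taken, whatever its values. This gave 24 of the 45037 probe sets that were not controls, and every member had at least 1. HSC were sorted as CD34-negative and MPP as CD34-positive KSL cells (KSL being a gate on Kit, lineage markers and 1 further antigen), both from mice of C57BL/6 background with no treatment, genetic change, tissue or age named in the labels. Each group held 2 samples called biological replicates. From each, the RNA of about 3000 cells was amplified in 2 cycles and measured on an Affymetrix Mouse Genome 430 2.0 array. A probe set's intensity, in arbitrary units, is its reading of a transcript. The labels do not say whether replicates came from separate animals, so the p-values do not measure a spread between animals. They rest on the spread between these samples, combined in limma with that of other probe sets of like brightness. The latter weighed more (prior degrees of freedom 8.48, residual 2).

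In the network, the MYC proteins (c-MYC from Myc, N-MYC from Mycn, L-MYC from Mycl) pair with MAX, bind the E-box word CACGTG and recruit coactivators, which raises transcription of genes for ribosomes, metabolism and cell division. The MXD proteins (MXD1, MXI1, MXD3 and MXD4) and MNT also pair with MAX, bind the same word and recruit the SIN3 and histone deacetylase corepressors. MLX is a MAX-like protein that pairs with MNT, some MXD proteins and the glucose-sensing MONDO factors. In the blood system, c-MYC is known for balancing stem cell self-renewal against differentiation, and N-MYC for sharing part of that work in stem cells.

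The E-box that the network's proteins read also stands in front of several of its own genes. RefSeq start-site windows (GRCm38.p6, 250 bases before to 50 after the start) were found for 9 of the 10 members (all but Myc), in 11 windows. CACGTG, which reads the same on both strands, was in 4 of these 11 windows (36.4%), from 4 of the 9 genes. Over all 32851 windows, 7.15% held it. These 4 stretches show it in capitals, 5′ to 3′ on the gene's strand, with the first base of the word 3 bases before the start in Max, 40 in Mlx, 123 in Mnt and 219 in Mxd4.
Max, chr12:76962246-76962305, minus strand: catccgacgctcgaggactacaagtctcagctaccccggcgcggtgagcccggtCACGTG
Mlx, chr11:101087223-101087282, plus strand: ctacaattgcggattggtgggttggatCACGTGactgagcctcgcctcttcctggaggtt
Mnt, chr11:74830774-74830833, plus strand: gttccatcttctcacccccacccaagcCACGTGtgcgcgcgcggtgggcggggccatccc
Mxd4, chr5:34187897-34187956, minus strand: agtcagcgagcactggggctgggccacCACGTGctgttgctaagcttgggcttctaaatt

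Mycn, whose window held no CACGTG, carried another kind of word. E2F factors, which time entry into DNA synthesis, bind GC-rich words of which 4 were searched on both strands: TTTCCCGC, TTTCGCGC, TTTGCCGC and TTTGGCGC. At least 1 of them was in 2.27% of all windows and, among the members' 11 windows, in that of Mycn alone. The Mycn window held 3 matches, of which 2 overlap (TTTGGCGC at 183 bases before the start, TTTCGCGC on the other strand at 179, and TTTGGCGC again at 168), shown in capitals.
Mycn, chr12:12941978-12942037, minus strand: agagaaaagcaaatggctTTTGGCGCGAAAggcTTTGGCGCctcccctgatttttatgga
A match of letters is a description and was not tested for binding.

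The arrays had been scaled to one level, with median intensities of 26.1 and 26.9 in HSC and 22.0 and 21.3 in MPP. A floor was set per array as the highest signal of the 27 probe sets for Bacillus subtilis controls, and lay between 13.6 and 16.9 units. HSC replicate 2 stood apart in how much brighter actin was at its 3′ end than at its 5′ end, a sign of RNA or amplification quality (9.42 times, against 4.99 to 5.26 on the other arrays). Of the sort gene and its companions, Cd34 fell by 2.66 on the log2 scale in HSC and Flt3 fell by 3.53, while Slamf1 (3.29), Procr (2.31) and Kit (0.65) were called higher (limma adjusted p at most 0.0328, n = 2 a group). The Kit call was lost in 6 of 12 alternatives: without HSC replicate 1 (0.48, adjusted p = 0.0613), without MPP replicate 1 or 2 (0.62 and 0.67, adjusted p = 0.212 and 0.181), with equal medians (0.41, adjusted p = 0.15), with no filter (adjusted p = 0.0850) and with no variance trend (adjusted p = 0.198). Of the markers of mature T cells, Cd3d, Cd3e and Cd3g were below the floor on all 4 arrays, and the same held for Cd79a of B cells and Alas2 of red cells. Other markers in the same lists read above the floor on all 4 arrays: Cd8a (16.0 to 46.2 units) and Nkg7 of T and NK cells, Cd79b of B cells (117 to 152) and Hemgn of red cells (549 to 755). Summed over 7 macrophage and neutrophil markers, of which Csf1r was called lower in HSC, the signal was 150.2 to 260 units in HSC and 496 to 742 in MPP. Over 5 T and NK cell markers it was 99.5 to 111 in HSC and 358 to 399 in MPP, with Nkg7 called lower. Over 5 erythroid markers it was 897 to 1059 in HSC and 598 to 756 in MPP, with Rhag and Klf1 called higher, and over 4 megakaryocyte markers it was 738 to 1012 and 371 to 524, with Pf4 and Gp9 called higher. Over 4 B cell markers it was 184 to 219 and 162 to 184, with no call. The part of such cells or of early lineage RNA in the results below was not tested.

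Mycn was called higher in HSC on both of its tested probe sets, 1 of the 3 tested Mxd3 probe sets was called lower, and no other member had a call. Max was not measured. By the brightest tested probe set of each gene, 9 members could be tested: 1 was called higher in HSC, at a background of 7.71% of all 12382 genes, and 0 lower, at a background of 5.90% (limma, Benjamini-Hochberg adjusted p under 0.05; at an unadjusted p under 0.05, 1 was higher and 1 lower). Their median log2 difference, HSC minus MPP, was 0.14, against 0.10 for all tested genes. By probe set, 17 of the 24 passed the filter on low signal, of which 2 were called higher (both Mycn), at a background of 5.96%, and 1 lower (Mxd3), at a background of 4.65%. In 11 of these 17 the HSC and MPP values did not overlap, as in 54.6% of all tested probe sets. In bulk samples, fewer cells with a transcript and less of it per cell cannot be told apart.

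**Figure D1:**
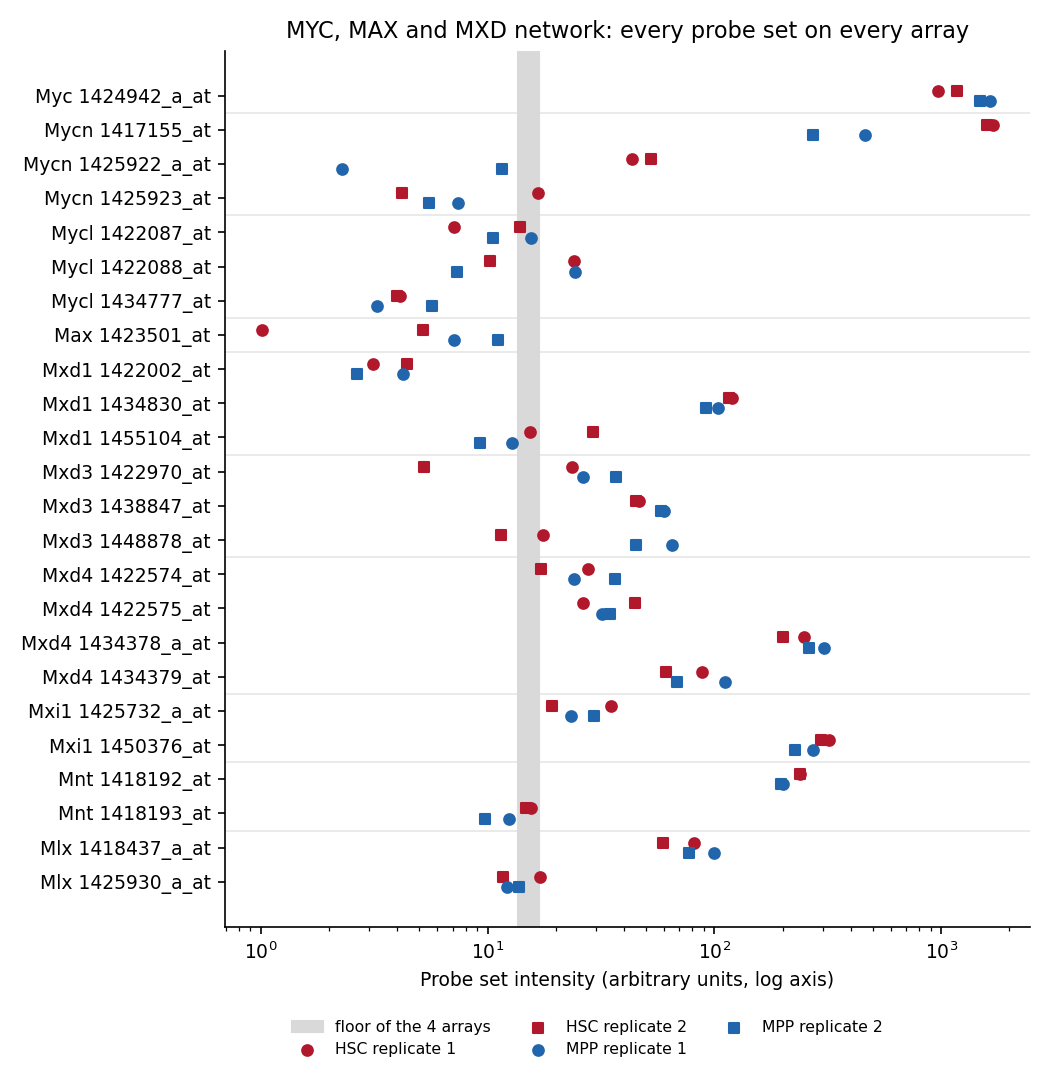
Intensity (arbitrary units, log axis) of each of the 24 probe sets of the network on the 2 HSC arrays (red) and the 2 MPP arrays (blue), with the range of the arrays' floors (13.6 to 16.9) in grey. The brightest Mycn probe set reads 1696 and 1600 in HSC against 459 and 271 in MPP, Myc is bright in both groups, and the single Max probe set lies below the floor on every array.

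Of the activators, Mycn was the one called higher in HSC. Its brightest probe set (1417155_at) read 1696 and 1600 units in HSC and 459 and 271 in MPP, or 1648 ± 67.7 against 365 ± 133 (SD, n = 2 each). Both HSC values lay above both MPP values with no overlap. Mycn rose 4.60-fold in HSC, a log2 difference of 2.20 (SE 0.23, 95% interval 1.70 to 2.71, limma adjusted p = 2.11e-04), where probe sets of the same brightness had a median of -0.10. The second Mycn probe set (1425922_a_at) was dimmer, at 43.3 and 52.7 units in HSC and 2.28 and 11.6 in MPP. Both MPP values were below the floor, so its rise was at least 2.66-fold, counted against the floor (log2 difference 2.16 as fitted, SE 0.48, adjusted p = 0.0172). It was not called once MPP replicate 1 was left out (1.61, adjusted p = 0.0596), with no filter on dim signal (adjusted p = 0.0807) or when the prior variance had no trend with brightness (adjusted p = 0.0524), while the brightest probe set kept its call in all 13 alternatives that tested it (1.83 to 2.58). The last, 1425923_at, was below the floor on all 4 arrays and gave no measurement.

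Myc, the gene of c-MYC, went the other way without passing the threshold. Its only probe set (1424942_a_at) read 967 and 1171 units in HSC and 1646 and 1482 in MPP, or 1069 ± 144 against 1564 ± 116 (SD, n = 2 each). The groups did not overlap, and both MPP arrays were the higher. The log2 difference was -0.55 (SE 0.16, 95% interval -0.92 to -0.19, limma adjusted p = 0.0593), against a median of -0.10 for probe sets as bright. Myc was called lower in HSC with the array medians made equal (-0.78, limma adjusted p = 0.00922) and with the dimmest 60% of probe sets left out (-0.55, adjusted p = 0.0454). The same held with the replicate numbers as a block (-0.55, adjusted p = 0.0359). Settings without a call included quantile normalization (-0.41, adjusted p = 0.119), no filter (adjusted p = 0.127) and no variance trend (adjusted p = 0.254). The Myc difference was -0.41 without HSC replicate 1 and -0.69 without HSC replicate 2. Without MPP replicate 1 it was -0.48, and without MPP replicate 2 it was -0.63.

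Mycl, the gene of L-MYC, was not clearly detected. Of its 3 probe sets, 1422088_at passed the filter, at 24.1 and 10.3 units in HSC and 24.2 and 7.31 in MPP. In each group 1 array lay above the floor and 1 below, and the values of the groups overlapped (log2 difference 0.14, 95% interval -1.10 to 1.39, adjusted p = 0.908; -0.08 after quantile normalization and -0.09 with equal medians). The highest value of the other Mycl probe sets was 15.5 units, on MPP replicate 1.

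For the dimerisation partners the arrays said less. Max, the obligate partner of the MYC proteins, had 1 probe set that named it alone (1423501_at), at 1.01 and 5.20 units in HSC and 7.10 and 11.1 in MPP. All 4 values were below the floor, so no level or difference of Max was measured. Mlx had 1 probe set above the floor on all arrays (1418437_a_at), at 81.2 and 59.1 units in HSC and 99.6 and 77.2 in MPP. The Mlx groups overlapped, and the log2 difference was -0.31 (SE 0.28, 95% interval -0.93 to 0.30, adjusted p = 0.534).

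Among the repressors, Mxd3, an MXD member expressed in dividing cells, was the one with a call. All 3 of its tested probe sets read lower in both HSC samples than in both MPP samples. Over all tested probe sets, the groups did not overlap, in either direction, in 54.6%. The called one (1448878_at) was at 17.5 and 11.5 units in HSC and at 65.1 and 45.1 in MPP, and HSC replicate 2 was below the floor. It fell by 1.57 on the log2 scale in HSC (SE 0.38, 95% interval -2.42 to -0.72, limma adjusted p = 0.0254). Leaving out MPP replicate 1 or 2 ended that call (-1.33 and -1.81, adjusted p = 0.206 and 0.0598), as did testing all probe sets (adjusted p = 0.106) or a prior variance with no trend (adjusted p = 0.0511). The brightest Mxd3 probe set (1438847_at), which stands for the gene in the counts above, read 46.5 and 45.2 units in HSC and 60.2 and 58.3 in MPP and was not called (log2 difference -0.33, SE 0.29, adjusted p = 0.523). The dimmest, 1422970_at, was at 23.5 and 5.23 against 26.4 and 36.7 units (-1.03, limma adjusted p = 0.260), with HSC replicate 2 below the floor. Its difference was -1.73 without HSC replicate 1, where only that value below the floor stood for HSC. Without HSC replicate 2 it was -0.33.

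The other repressors were not called on any tested probe set. The intervals given for them hold for the values as deposited. Mxd1 1422002_at and Mnt 1418193_at were below the floor on all 4 arrays and were not tested. Mxd1, known for its induction as blood cells mature, read 120.0 and 116 units in HSC and 104 and 91.5 in MPP on its brightest probe set (1434830_at). These Mxd1 groups did not overlap, but the log2 difference was only 0.26 (95% interval -0.25 to 0.78, adjusted p = 0.532). A second Mxd1 probe set (1455104_at) was at 15.3 and 29.1 against 12.8 and 9.29 units, above the floor on 1 of the 4 arrays, with a difference of 0.69 (adjusted p = 0.425). Mxi1, the MXD2 repressor, read 319.9 and 296 units in HSC and 272 and 226 in MPP on 1450376_at. Its HSC values were again both the higher (log2 difference 0.31, 95% interval -0.12 to 0.74, adjusted p = 0.371). The dimmer Mxi1 probe set (1425732_a_at) overlapped between groups, with a difference of -0.01 (95% interval -0.90 to 0.89). Mnt, the broadly expressed MAX-bound antagonist of MYC, had replicates that lay close together. It read 238 and 239.6 units in HSC and 200.3 and 197 in MPP on 1418192_at, a difference of 0.26 (95% interval -0.17 to 0.69, adjusted p = 0.451). With equal medians, the brightest probe sets of Mxd1, Mxi1 and Mnt differed by only 0.03, 0.07 and 0.03. Their groups did not overlap as deposited, as in 54.6% of all tested probe sets.

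Mxd4 had 4 tested probe sets, all above the floor on every array, and none was called. The brightest (1434378_a_at) read 248 and 200.5 units in HSC and 305 and 263 in MPP, without overlap. Its log2 difference was -0.34 (95% interval -0.79 to 0.11, adjusted p = 0.352). The other Mxd4 probe sets overlapped between the groups and had differences of -0.35, -0.23 and 0.05, the last of which turned negative after quantile normalization (-0.17) and with equal medians (-0.19). None of the intervals for the brightest probe sets of Mxd1, Mxi1, Mnt, Mxd4 and Mlx reached a log2 difference of 1 in either direction. Those of the dimmer 1455104_at of Mxd1 (-0.39 to 1.77) and 1422574_at of Mxd4 (-1.25 to 0.55) did.

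**Figure D2:**
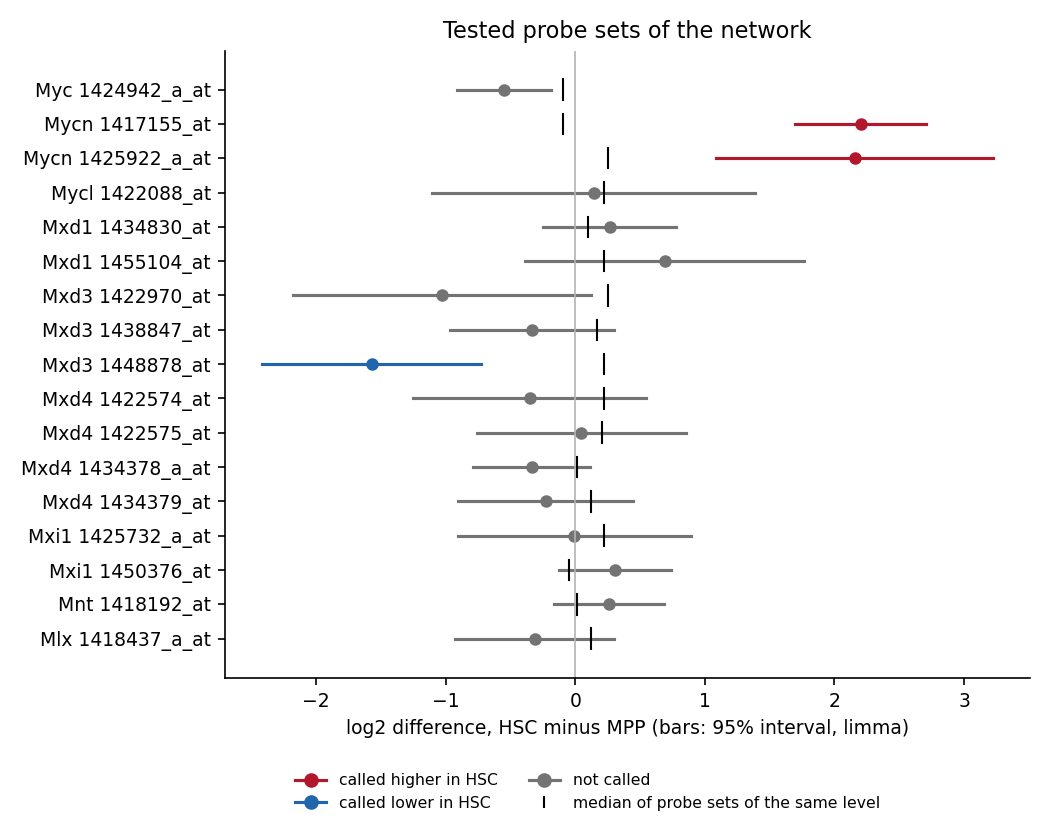
Log2 difference, HSC minus MPP, of the 17 tested probe sets of the network, with 95% intervals from limma. Black ticks give the median of probe sets of the same brightness. Both Mycn probe sets lie near 2.2 (2.20 and 2.16), 1 Mxd3 probe set lies at -1.57, and the intervals of the 14 that were not called include 0, except that of Myc.

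The 3 genes nearest to Myc and to Mycn over the 4 arrays were listed by the distance between log2 values centred on their mean, among 12381 other genes. For Myc these were Fkbp4, Psmd14 and Caprin1 (distances 0.036, 0.050 and 0.052), all lower in HSC by log2 differences between -0.57 and -0.52. For Mycn they were Slc18a2, Ntn4 and Mpdz (distances 0.145, 0.159 and 0.237), with fitted differences of 2.11, 2.31 and 2.17, although Ntn4 was below the floor on both MPP arrays. Slc18a2, a vesicle transporter of monoamines, read 492 and 464 units in HSC and 147 and 75.8 in MPP. Over 4 arrays, such nearness reflects little more than a difference of like size.

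Other factors that bind E-boxes were compared from a list of 14, which includes the MONDO partners of MLX (Mlxip, Mlxipl) and the MAX partner Mga. This list and those below were chosen with earlier results of these data known. Of 13 tested, 1 was called higher and 0 lower (at an unadjusted p under 0.05, 4 and 0), with a median log2 difference of 0.28. Over all tested genes, 7.71% were called higher and 5.90% lower, so this list's count is at the background. The called gene was Mitf, a regulator of mast and pigment cells: it read 205 and 246 units in HSC and 116 and 103 in MPP. It rose 2.00-fold (SE 0.22 on the log2 scale, adjusted p = 0.0150), without overlap. Mitf was not called when MPP replicate 2 was left out (0.92, adjusted p = 0.101) or with no variance trend (adjusted p = 0.0865).

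Among genes that help or restrain MYC at the protein level, the calls were toward lower signal in HSC. Of 22 tested coactivators and turnover genes, 7 were called lower in HSC and 0 higher, beside 5.90% and 7.71% of all tested genes. At an unadjusted p under 0.05 in limma, the counts were again 7 and 0. Their median log2 difference was -0.12, against 0.10 for all tested genes. Of the 22, 13 were read by probe sets in the brightest 20%, whose medians were -0.05 and -0.10 in the lower and upper 10%. Cip2a, which shields MYC from dephosphorylation, fell 4.20-fold (54.6 and 65.7 units in HSC, 281 and 261 in MPP, adjusted p = 2.86e-04). Aurka, a mitotic kinase that also stabilises N-MYC, fell 3.53-fold (68.4 and 53.0 against 248 and 209 units, adjusted p = 9.06e-04). The other 5, named after their values were seen, were the helicase gene Ruvbl2, the chromatin subunit gene Actl6a, the host cell factor Hcfc1, the ubiquitin ligase subunit gene Skp2 and Bin1, an inhibitor of MYC. Without MPP replicate 1, or without MPP replicate 2, 3 of the list were called lower, as was the case with no variance trend. Of 7 SIN3 and deacetylase corepressor genes, all had lower means on the log2 scale in HSC (median -0.24), as had 42.3% of all tested genes. Of these 7, 6 were also in the brightest 20%. At an unadjusted p under 0.05, 2 were lower and 0 higher. After adjustment, 1 was called lower and 0 higher, at a background of 5.90% and 7.71%. That was Sap30, at 229 and 219.6 against 449 and 441 units (adjusted p = 0.00644), no longer called when MPP replicate 1 was left out (-0.96, adjusted p = 0.0503) or with no variance trend (adjusted p = 0.0782).

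Textbook MYC-induced genes had log2 differences below 0 for 32 of the 36 tested, as had 42.3% of all tested genes. Of these 36, 13 were called lower and 1 higher, beside 5.90% and 7.71% of all tested genes. The median log2 difference was -0.55 against 0.10 for all tested genes, but 30 of the 36 were read by probe sets in the brightest 20%, whose medians were -0.05 and -0.10 in the lower and upper 10%. Nop56, a nucleolar protein of ribosome assembly, fell 2.04-fold (642 and 598 units in HSC, 1167 and 1388 in MPP, adjusted p = 0.00299). Srm, spermidine synthase, fell 2.13-fold (428 and 336 against 768 and 868 units, adjusted p = 0.00384). With no variance trend neither Nop56 (adjusted p = 0.0785) nor Srm (adjusted p = 0.0793) was called. The 11 others, named after their values were seen, were Fbl, Dkc1, Nolc1 and Rrp9 of the nucleolus, the metabolic enzyme genes Ppat, Shmt2 and Nme1, the cell cycle genes Cdk4 and Cdc25a, the chaperone gene Hspd1 and the amino acid transporter gene Slc7a5. Slc7a5 was below the floor on both HSC arrays and at least 2.37-fold lower. Ccnd2, cyclin D2, was the member called higher, at 2706 and 2785 units in HSC and 1472 and 1901 in MPP (1.64-fold, adjusted p = 0.0204). Ccnd2 was not called with MPP replicate 1 or 2 left out (0.53 and 0.90, adjusted p = 0.305 and 0.0512), with equal medians (0.48, adjusted p = 0.0904), with no filter or with no variance trend, although 3 further Ccnd2 probe sets were also called higher. The count of lower calls was 4 without MPP replicate 1 and 3 without MPP replicate 2, 20 with equal medians, 8 with no filter and 1 with no variance trend. Of the 33 listed genes with a start-site window, 7 had CACGTG in it. By window this was 8 of 44 (18.2%), against 7.15% of all windows. Any link of the word to the lower signal was not tested.

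Cell division moved with these lists: all 11 tested mitosis genes were called lower in HSC, beside 5.90% of all tested genes, with a median of -2.29. Mki67 read 555 and 546 units in HSC and 3127 and 2520 in MPP, and Top2a 565 and 486 against 2764 and 2411. The groups are therefore apart in cycling genes, and the part of that in the Myc, Mxd3, Aurka, Cip2a and MYC-induced values was not tested.

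Genes known to be repressed by MYC did not move as one. Of 9 tested, 2 were called higher and 2 lower, beside 7.71% and 5.90% of all tested genes, with a median of 0.18 (at an unadjusted p under 0.05, 2 higher and 3 lower). Gadd45g, a stress gene that slows growth, was below the floor on both MPP arrays and at least 3.66-fold higher in HSC (80.1 and 57.9 units, adjusted p = 0.00348). Ndrg2, a differentiation gene, rose 3.61-fold (113 and 179 against 48.7 and 24.8 units, adjusted p = 0.00655; 0.0673 with no variance trend). In the other direction, the cell cycle inhibitor gene Cdkn1a was at 14.6 and 33.0 units in HSC and 100.05 and 155 in MPP (log2 difference -2.20, adjusted p = 0.00368), with HSC replicate 1 below the floor. Cebpa, a myeloid factor, was below the floor on both HSC arrays and at least 3.18-fold lower (63.3 and 69.8 units in MPP, adjusted p = 0.00628).

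Both listed targets of MLX and its MONDO partners were called higher in HSC, beside 7.71% of all tested genes, while Mlx, Mlxip and Mlxipl were not called. Txnip, a brake on glucose uptake, read 2476.5 and 2020.2 units in HSC and 740.45 and 652 in MPP, and rose 3.20-fold (SE 0.17 on the log2 scale, adjusted p = 1.69e-04). Arrdc4, its relative, read 233 and 143 against 65.7 and 41.7 units, and rose 3.23-fold (SE 0.31 on the log2 scale, adjusted p = 0.00559; 0.0666 with no variance trend). Neither pair of groups overlapped. Mlxip, which encodes MONDOA, read 243 and 253 units in HSC and 245 and 223 in MPP, a log2 difference of 0.08 (95% interval -0.34 to 0.51, adjusted p = 0.831). Mlxipl was dim, at 28.6 and 18.0 units in HSC and 27.7 and 0.85 in MPP (0.92, limma adjusted p = 0.457), with MPP replicate 2 below the floor.

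**Figure D3:**
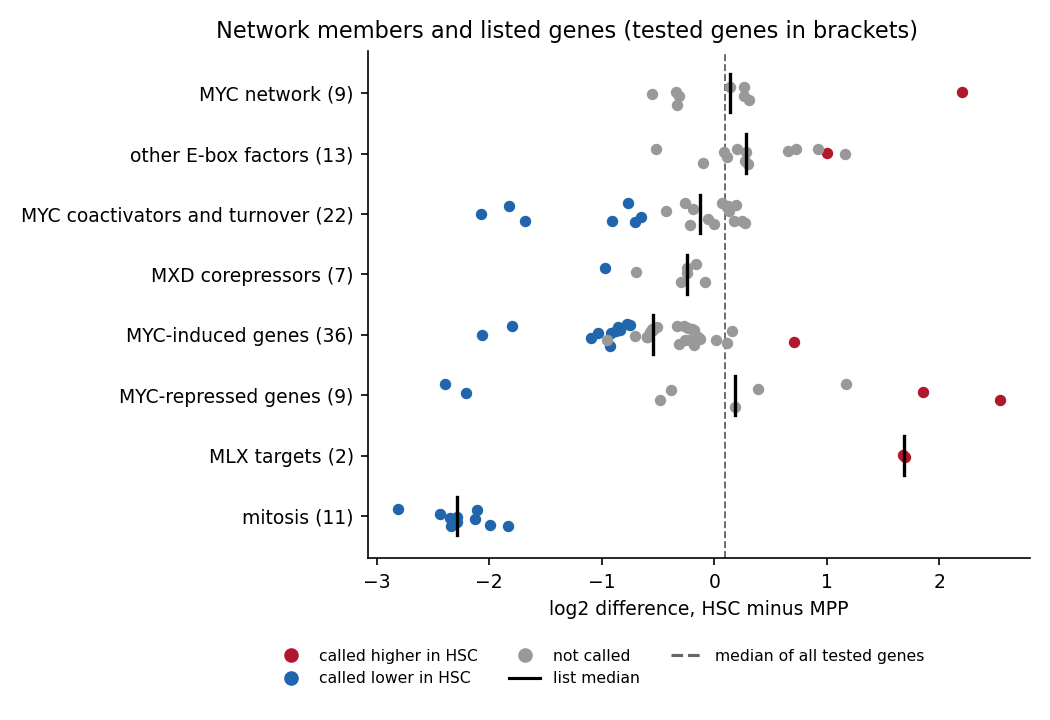
Log2 difference, HSC minus MPP, of each tested gene by its brightest tested probe set, for the network and the gene lists. Coloured points are called (adjusted p under 0.05), black bars are list medians and the dashed line is the median of all tested genes (0.10). Mycn, at 2.20, is the called gene of the network, the MYC-induced genes lie mostly left of 0 and the mitosis genes lie between -2.81 and -1.83.

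**Figure D4:**
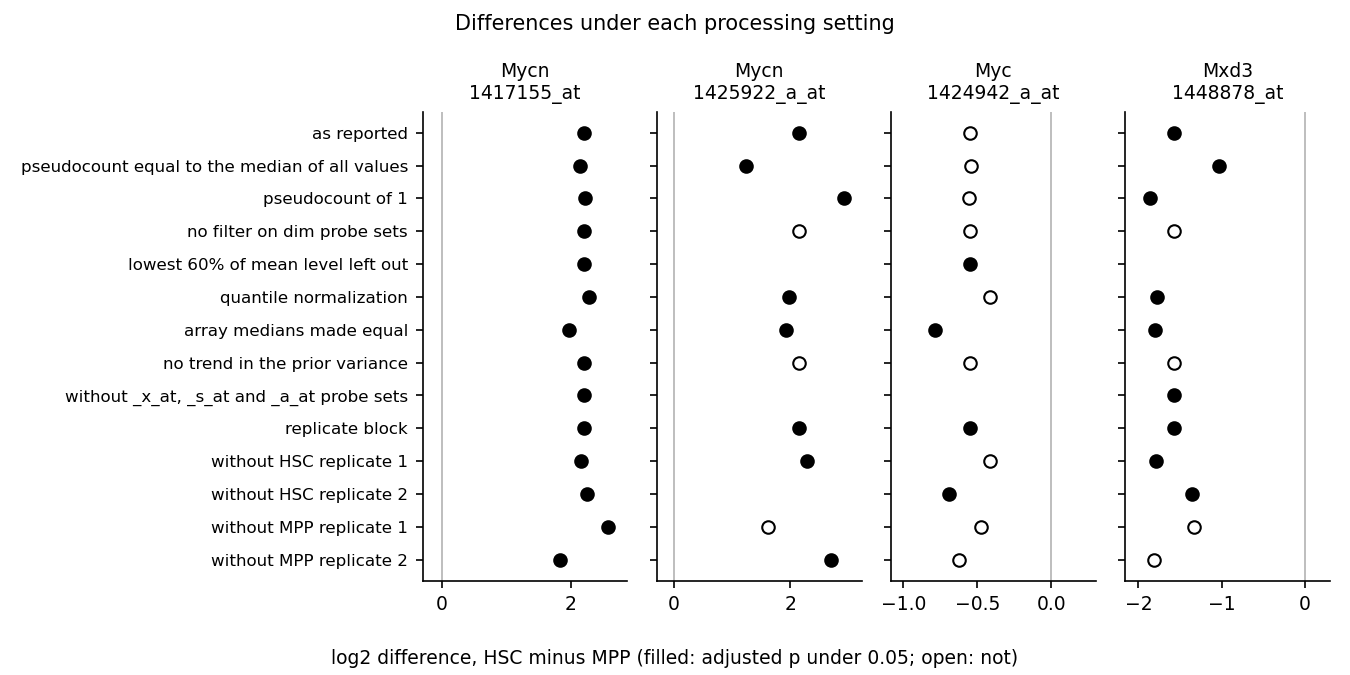
Log2 difference, HSC minus MPP, of 4 probe sets of the network under each processing setting that tested them. Filled points have an adjusted p under 0.05. Mycn 1417155_at is filled throughout, while Myc is filled under 4 alternatives and the Mxd3 probe set is open under 4.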

How the data were processed

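The deposited table gives 1 linear intensity per probe set and array; how the authors computed it from the scans was not stated in the labels. Its trimmed mean (2% off each end) was 100.0 on all 4 arrays. The 2 cycles of amplification, stated per the labels' protocols, favour 3′ ends and can blur dim signals. Probe sets were named from the platform annotation, updated by gene identifier to a RefSeq table (GRCm38.p6).

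Values were analysed as log2(intensity + 6.01), a pseudocount of 0.25 of the overall median. Folds on this scale understate dim genes. Array medians lay within 0.271 on this scale, under the limit of 0.5, so values were used as deposited. The dimmest 40% of probe sets were left out, leaving 27022. HSC and MPP were compared in limma 3.58.1 (R 4.3.3; lmFit, eBayes with trend, 2-sided, no covariates), with Benjamini-Hochberg adjustment over all tested probe sets. Each gene stands by its brightest tested probe set. The fit was checked on simulated data, with noise that did not depend on brightness and with changes only among the brighter probe sets. That check did not cover changes in dim probe sets. The residual degrees of freedom were 2 and the prior ones 8.48. A bound ("at least") sets each dim value to its array's floor and adds the pseudocount.

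Named genes were all members, the 2 called genes of smallest p per direction in each list, both MLX targets and 5 sort genes. Members and lists were chosen with earlier results of these data known. List genes without a probe set of 1 symbol were not analysed here.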

Additional observations from a re-analysis of the deposited data

How the results depend on the processing

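Over 14 alternatives, the 17 tested network probe sets gave 204 further values. Of these, 192 kept their side of the threshold, 7 lost a call and 5 gained one. No called value changed sign, and 12 values that were never called did. Mycn was the 1 network gene called higher under every alternative. The network genes called lower numbered 1 (Myc) with the lowest 60% left out, with array medians made equal, under the replicate block and without HSC replicate 2 (range 0 to 1 over arrays left out), and 1 (Mxd3) with the probe set of smallest p.

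The median tested probe set was at 0.11 as deposited, -0.01 after quantile normalization and -0.13 with equal medians. Probe sets called higher and lower numbered 1611 and 1257, against 917 and 780 with no filter, 1020 and 2379 with equal medians and 633 and 374 without the variance trend. Leaving out 1 array gave 1060 to 1931 higher and 561 to 1897 lower.

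MYC-induced genes called lower numbered 8 with no filter, 20 with equal medians, 1 without the trend and 3 to 18 without 1 array, and those called higher 0 under these first 3 settings and 0 to 1 without 1 array. Coactivators called lower numbered 4 with no filter or without _x_at, _s_at and _a_at probe sets, 3 without the trend and 3 to 7 without 1 array. Corepressors called lower numbered 0 without the trend, 2 with the smallest p and 0 to 2 without 1 array. Other E-box factors called higher numbered 0 without the trend and 0 to 1 without 1 array. Repressed genes called higher numbered 1 without the trend, with 60% left out or without the suffixed probe sets, and 1 was called lower with 60% left out. MLX targets called higher numbered 1 without the trend. Fewer probe sets tested, or fewer arrays, is part of these alternatives; beyond that the cause was not tested.

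The replicate numbers were not shown to pair the samples: deviations of same-numbered arrays correlated at 0.027. With the replicate block, 1 residual degree of freedom was left and the prior ones became infinite. The spread thus came wholly from other probe sets. Then 2525 probe sets were called higher, 2 other E-box factors higher and 2 corepressors lower, and Myc was at -0.55 (limma adjusted p = 0.0359). With 4 arrays, small differences and members near the floor (Max, Mycl) cannot be resolved.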
